A study of Mus musculus with 6 samples.

Results

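The 9 Hedgehog pathway genes Ptch1, Smo, Gli1, Gli2, Gli3, Hhip, Sufu, Gas1 and Boc were chosen by name from the 22609 mouse genes listed in every sample, and all 9 were found. RNA was sequenced from cultures grown from the stromal cells of inguinal (subcutaneous) white fat of male C57BL6 mice, labelled as 3 weeks old, and differentiated toward adipocytes. The samples are 3 cultures given mimic control and 3 given miR-182-5p mimic, a synthetic RNA that acts as extra copies of the microRNA miR-182-5p. The labels name a control vector, overexpression of miR182 and delivery by electroporation, whereas the methods of the study describe a mimic delivered with a lipid reagent and give another age for the mice. The labels name no altered allele in either group. The samples carry the numbers 1 to 3 in each group, and no source says whether they came from separate cell preparations, so the p-values measure the spread between these samples, which may be technical.

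Hedgehog ligands (Shh, Ihh and Dhh) bind the receptor Ptch1, which otherwise holds the membrane protein Smo inactive. Gas1, Boc and Cdon are coreceptors that help the ligand reach Ptch1, and Hhip binds the ligand and keeps it away. Active Smo, working at the primary cilium, frees the transcription factors Gli2 and Gli3 from Sufu, the cytoplasmic protein that holds them. Gli2 acts mainly as an activator and Gli3 mainly as a repressor, while Gli1, Ptch1 and Hhip are themselves transcribed in response to the signal. In fat, Hedgehog signal is known to hold back the differentiation of adipocyte progenitors.

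Ptch1 rose, and Gli2 and Gas1 fell, in the cultures with miR-182-5p mimic. Ptch1 was 1.85-fold higher, Gli2 was 1.76-fold lower and Gas1 was 1.73-fold lower by mean CPM (counts scaled to the TMM-adjusted size of each library, n = 3 each). The other 5 genes tested (Smo, Gli3, Hhip, Sufu and Boc) did not pass the cutoffs, and Gli1 had too few reads to be tested. Each of the 13117 genes with enough reads was tested by the quasi-likelihood method of edgeR with Benjamini-Hochberg adjustment, and those past 1.5-fold with an adjusted p under 0.05 are referred to as called. Of the 8 genes tested, 3 were called, where 7.45% of all genes tested were called. The 1 gene called higher stands beside 1.97% of all genes, and the 2 called lower beside 5.48%. The genes were chosen with earlier results of these data known, so these shares are given for scale and cannot show an excess. The median log2 fold change of the 8 genes was -0.16, against -0.0043 for all genes tested. The summed level of 8 progenitor markers was lower in the same mimic samples (1196 to 1326 CPM against 1481 to 1514 CPM). The most abundant of them, Thy1, was higher (0.19 on the log2 scale). The summed level of 8 adipocyte markers was lower as well (4650 to 5244 CPM against 6807 to 7152 CPM). That of 4 smooth muscle markers was higher (4123 to 4490 CPM against 3446 to 3619 CPM). In bulk cultures, fewer cells of a type and less RNA per cell cannot be told apart, and the part of cell composition in the values of Gas1, Gli2 and Ptch1 was not tested.

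Because a microRNA pairs with its targets through its seed, bases 2 to 8, the mature sequence is shown with the seed in capitals. It is taken from RefSeq on GRCm38.p6, at chr6:30165962-30165986 on the minus strand. The methods of the study print another mature sequence under the name miR-182-5p, and the sequence of the mimic itself was not analysed here.
mmu-miR-182-5p: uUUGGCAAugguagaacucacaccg

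The 7-base match to this seed, TTGCCAA, was looked for in the longest annotated 3′-UTR of each gene (GENCODE M21, GRCm38). It was found in Gli2 and in none of the other 8 Hedgehog genes, and 12.5% of the 12540 genes tested that have such a 3′-UTR hold it. Gli2 held 2 matches in its 1653-base 3′-UTR, and 1.92% of the genes hold 2 or more. Both lie on the minus strand of chromosome 1 and are shown with 10 bases on each side and the match in capitals. The first, at positions 1245 to 1251 of the 3′-UTR, is within chr1:118834524-118834550, and the second, at positions 1553 to 1559 and followed by an A, is within chr1:118834216-118834242.
Gli2 match 1: acagaaacttTTGCCAAccaaacctca
Gli2 match 2: caaatttataTTGCCAAacatttttag

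A match is a sequence of letters and not a measured binding site. Of the 241 genes tested with 2 or more matches, 44 were called lower (18.3%, beside 5.48% of all genes tested) and 1 was called higher (0.415%, beside 1.97%). Gli2 is itself among those 44, and the genes were not matched for the length of the 3′-UTR. Whether the matches bear on the level of Gli2 was not tested. Among 75 other genes of the pathway with a 3′-UTR, 13 held a match, and of the 12 of these that were tested, 1 (Foxf2) was called lower and none higher, with log2 fold changes from -0.63 to 0.52. Lrp2, an endocytic receptor picked here after its values were seen, also held 2 matches, and its log2 fold change was 0.16 (standard error, SE, 0.10, edgeR adjusted p = 0.215).

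Ptch1, on chromosome 13, encodes the receptor that restrains Smo. It had 10.1, 10.3 and 9.08 CPM in mimic control replicates 1 to 3 and 16.5, 18.2 and 19.9 CPM in miR-182-5p mimic replicates 1 to 3. All 3 mimic samples exceeded all 3 controls, and the lowest mimic value was above the highest control value by more than the range within either group. The mean went from 9.83 ± 0.653 to 18.2 ± 1.72 CPM (SD, n = 3 each), which is 0.89 on the log2 scale with an SE of 0.082 (edgeR adjusted p = 8.73e-07). These values rest on 237 to 562 reads per sample.

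Smo, on chromosome 6, encodes the membrane protein through which the signal enters the cell. It had 110, 110 and 111 CPM with mimic control and 92.5, 98.7 and 98.9 CPM with the mimic. The groups did not overlap, but the difference was small beside those of Ptch1, Gli2 and Gas1. Its log2 fold change was -0.19 (standard error 0.033), which passed the adjusted p (0.000297, edgeR) and fell short of the 1.5-fold line. Within each sample, the level of Ptch1 relative to Smo, both per kilobase of transcript, was between 0.0401 and 0.0458 with mimic control and between 0.0871 and 0.0984 with the mimic.

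**Figure D1:**
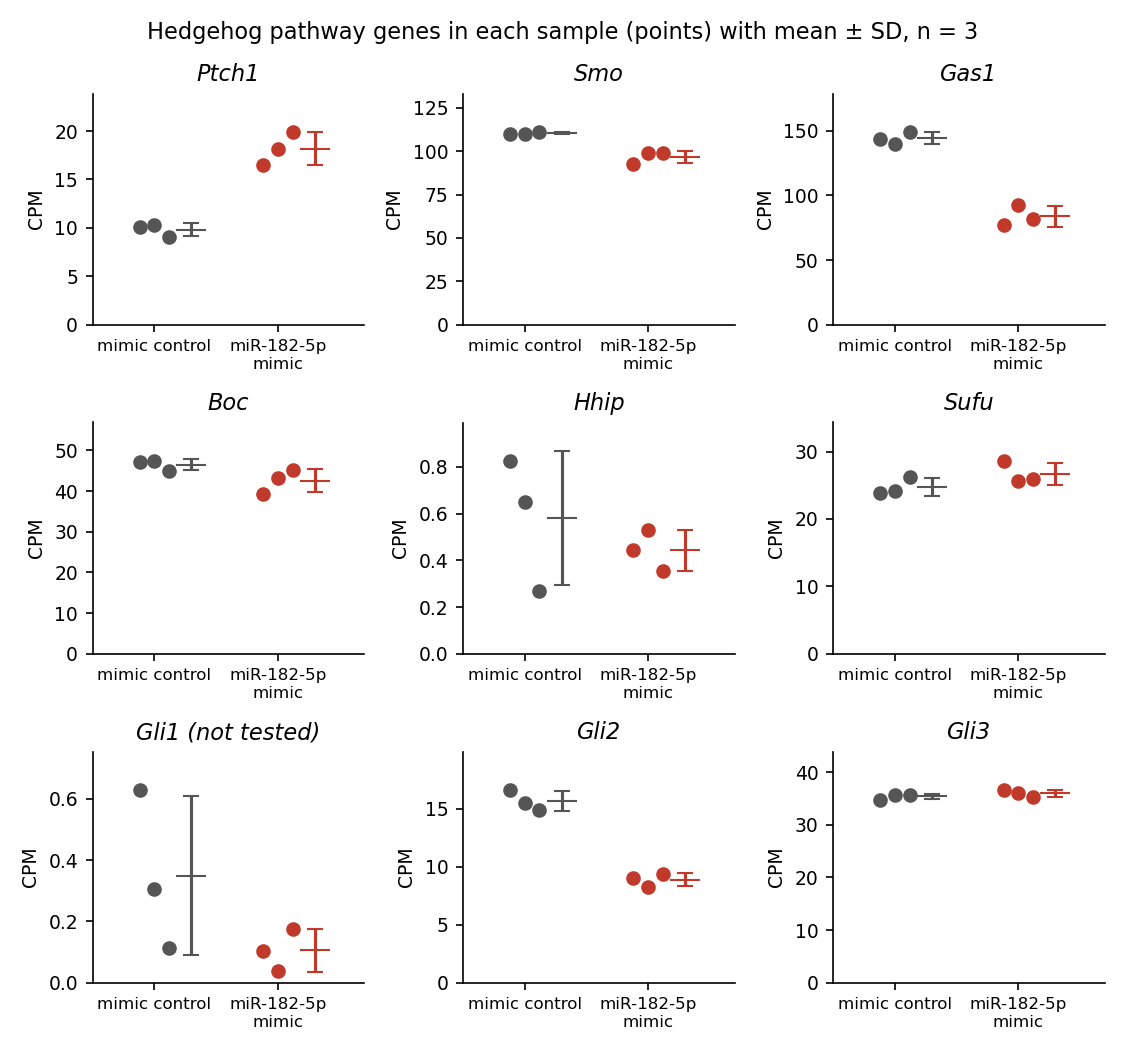
CPM (vertical axes from 0, scaled for each gene) of the 9 Hedgehog pathway genes in the 3 mimic control samples (grey points) and the 3 miR-182-5p mimic samples (red points), with bars for the mean ± SD of each group. The groups do not overlap for Ptch1, Smo, Gas1 and Gli2, while Gli1 and Hhip lie under 1 CPM and overlap. The share of all genes without overlap is not given here, and 46.7% of all genes tested passed the adjusted p alone.

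Gas1, on chromosome 13, encodes a membrane-anchored coreceptor of the ligand and had the smallest p of the 8 genes tested. It had 144, 140 and 149 CPM with mimic control and 76.8, 92.7 and 81.8 CPM with the mimic. All mimic samples were far under the controls, with no overlap. The mean fell from 145 ± 4.48 to 83.8 ± 8.16 CPM (SD, n = 3 each), and the log2 fold change was -0.79 (SE 0.052, edgeR adjusted p = 3.05e-08). In the GRCm38 annotation a long noncoding RNA gene on the opposite strand shares 589 of its 2961 exon bases, and opposite-strand genes share 327 of 4995 exon bases of Gli1, 188 of 9589 of Gli3 and 175 of 9076 of Hhip. Whether counting used the strand is not given in the sources used here.

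Boc, on chromosome 16, encodes an immunoglobulin-domain coreceptor. It had 47.2, 47.4 and 44.9 CPM with mimic control and 39.4, 43.3 and 45.1 CPM with the mimic, so the groups overlapped. Its log2 fold change was -0.13 (SE 0.053, edgeR adjusted p = 0.0619). It was -0.072 without miR-182-5p mimic replicate 1 (adjusted p = 0.246) and -0.166 without miR-182-5p mimic replicate 3 (adjusted p = 0.0254), under the fold cutoff in both. Cdon, the related coreceptor, is named here after its values were seen. It had 140.5 ± 1.503 CPM with mimic control and 156 ± 4.84 CPM with the mimic (SD, n = 3 each), and the difference of 0.15 on the log2 scale passed the adjusted p (0.000997, edgeR) and not the fold cutoff. The level of Gas1 relative to Boc per kilobase of transcript was 4.58, 4.45 and 5.00 in the control samples and 2.93, 3.22 and 2.72 in the mimic samples, with no overlap.

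Hhip, on chromosome 8, encodes the ligand-binding inhibitor at the cell surface, and it was close to the limit of detection. Its reads numbered 21, 17 and 7 in the control samples and 13, 14 and 10 in the mimic samples, or 0.825, 0.651 and 0.268 against 0.445, 0.531 and 0.354 CPM. The groups overlapped, and the log2 fold change of -0.39 had a standard error of 0.38 (adjusted p = 0.431, edgeR), so that even a 1.5-fold difference would not have been detectable at this depth. Its log2 fold change was -0.056 without mimic control replicate 1 and -0.732 without mimic control replicate 3 (edgeR adjusted p = 0.928 and 0.0969). Sufu, on chromosome 19, encodes the protein that retains the Gli factors in the cytoplasm. It had 23.8, 24.2 and 26.2 CPM with mimic control and 28.6, 25.6 and 26.0 CPM with the mimic. These ranges overlapped, with a log2 fold change of 0.11 (SE 0.061, edgeR adjusted p = 0.151).

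Gli2, on chromosome 1, encodes the main activator among the Gli factors and carries both seed matches shown above. It had 16.6, 15.5 and 14.9 CPM with mimic control and 9.04, 8.27 and 9.35 CPM with the mimic. The groups were well apart and each was tight. The mean fell from 15.6 ± 0.869 to 8.89 ± 0.555 CPM (SD, n = 3 each), with a log2 fold change of -0.81 (SE 0.075, edgeR adjusted p = 8.62e-07). These values rest on 218 to 422 reads per sample.

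Gli3, on chromosome 13, encodes the factor that acts mainly as a repressor. It had 34.8, 35.7 and 35.7 CPM with mimic control and 36.6, 36.0 and 35.3 CPM with the mimic. The groups overlapped, and the log2 fold change was 0.02 with a standard error of 0.045 (adjusted p = 0.701, edgeR). Set against Gli3 in the same sample, per kilobase of transcript, Gli2 was at 0.586, 0.534 and 0.513 with mimic control and at 0.305, 0.283 and 0.326 with the mimic, so Gli3 was the more abundant of the pair in every sample and the gap was wider in each mimic sample.

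Gli1, on chromosome 10, encodes an activator that is itself transcribed in response to the signal. Its reads numbered 16, 8 and 3 in the control samples and 3, 1 and 5 in the mimic samples, and it did not pass the filter on low counts. The groups overlapped, and mimic control replicate 1 alone held more reads than the mimic samples together. In a fit without the filter its log2 fold change was -1.65 (adjusted p = 0.059, edgeR).

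An exact permutation test, two-sided, gave p = 0.1 for Ptch1, Smo, Gli2 and Gas1, the smallest p that 3 samples against 3 allow. When any single sample was dropped from the fit, Ptch1 stayed between 0.822 and 0.958, Gli2 between -0.848 and -0.761 and Gas1 between -0.863 and -0.729 on the log2 scale, and these 3 genes were called each time.

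**Figure D2:**
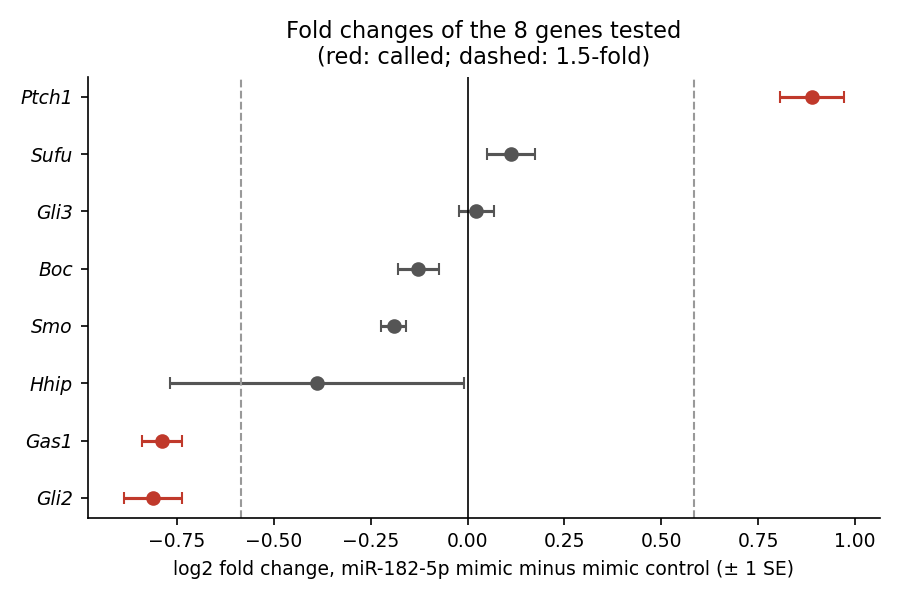
Log2 fold change (horizontal axis, miR-182-5p mimic minus mimic control, bars ± 1 standard error) of the 8 Hedgehog pathway genes with enough reads to be tested. Ptch1 (0.89), Gas1 (-0.79) and Gli2 (-0.81) lie beyond the dashed 1.5-fold lines and are red, and the other 5 lie between the lines.

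The genes differed widely in level. Levels between genes were compared as CPM per kilobase of transcript, using for each gene the GENCODE M21 coding transcript with the longest 3′-UTR. With mimic control, Gas1 was highest at 48.8 ± 1.51, followed by Smo at 29.2 ± 0.106, Boc at 10.5 ± 0.311, Sufu at 5.48 ± 0.288 and Gli3 at 4.33 ± 0.0615 CPM per kilobase (SD, n = 3 each). Gli2 came next at 2.36 ± 0.131 and Ptch1 at 1.27 ± 0.0846, while Gli1 (0.0863 ± 0.064) and Hhip (0.0641 ± 0.0314) were lowest and overlapped each other. No other neighbours in that order overlapped. With the mimic, Gas1 (28.3 ± 2.76) and Smo (25.6 ± 0.968) overlapped, as Hhip and Gli1 did, and Ptch1 (2.36 ± 0.222) stood above Gli2 (1.34 ± 0.0836). That last order depends on the length used. Over all annotated exon bases of each gene, which are 14185 for Ptch1 and 6869 for Gli2, the mimic samples had 1.28 ± 0.121 for Ptch1 and 1.29 ± 0.0807 for Gli2, and with mimic control Gli3 (3.69 ± 0.0524) stood above Sufu (3.22 ± 0.169).

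**Figure D3:**
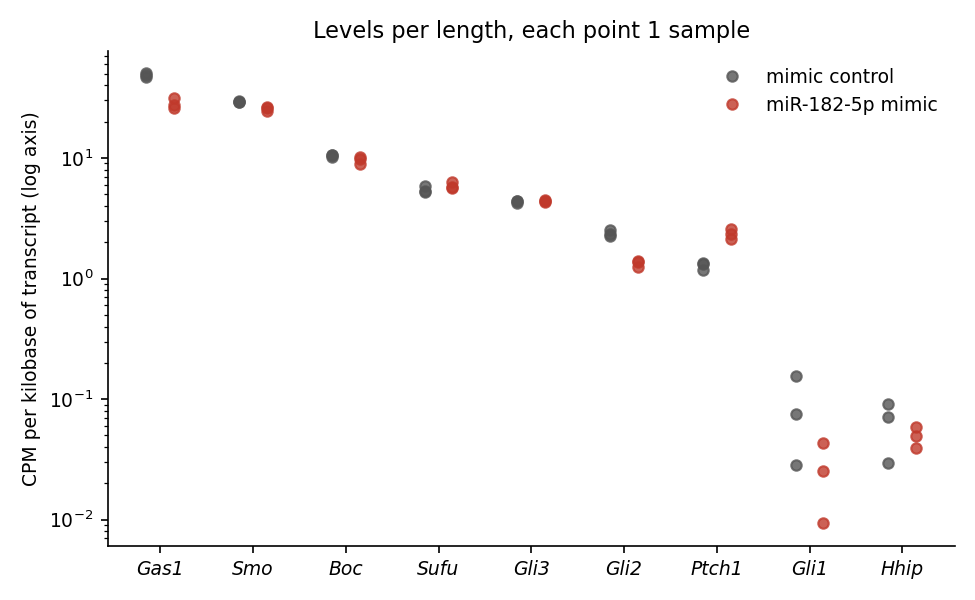
CPM per kilobase of transcript (vertical log axis) for the 9 Hedgehog pathway genes, ordered by their level with mimic control, with 1 point per sample (grey for mimic control, red for miR-182-5p mimic). Gas1 and Smo head the order, and Gli1 and Hhip lie under 0.2.

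The other genes of the pathway stayed mostly between the 1.5-fold lines. Of 76 such genes listed by role, 66 were tested, 0 were called higher and 1, Foxf2, was called lower by edgeR. Of all genes tested, 1.97% were called higher and 5.48% lower, so most genes of any kind were not called. DESeq2 and limma-voom called 0 higher as well. At an unadjusted p under 0.05 in edgeR 26 were higher and 10 lower, and the share of all genes at that p is not given here. By the adjusted p alone, 25 were higher and 10 lower, or 53.0% of those tested, where 46.7% of all genes tested passed it, 23.2% higher and 23.5% lower. The median log2 fold change of the 66 was 0.08.

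Ligand transcripts were scarce. Shh had 0, 0 and 2 reads in the control samples and 0 in each mimic sample, which allows up to 3 reads in each by counting error alone. Ihh had 3 reads in each control sample and 2, 1 and 4 with the mimic, and Dhh had 3, 5 and 5 reads against 0, 2 and 3. At these counts a difference was not detectable. Disp1, which releases the ligand from the cell making it, was listed at 0 in all 6 samples. Hhat, the acyltransferase that modifies the ligand, was at 6.49 ± 0.491 and 6.48 ± 0.625 CPM (SD, n = 3 each), with an adjusted p of 0.972 (edgeR). Disp2 (-0.54, adjusted p = 0.0402) and Scube2 (-0.56, adjusted p = 0.221), which encodes a carrier of released ligand, had log2 fold changes short of the fold cutoff.

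At the receiving membrane, 8 other genes were tested and none was called, with 2 higher and 2 lower by the adjusted p alone (50% in all, near the 46.7% of all genes). Those with the smallest p were glypicans, cell-surface heparan sulfate proteoglycans. Gpc6 had a log2 fold change of -0.24, Gpc3, a known inhibitor of Hedgehog ligands, had -0.49, and Gpc4 had 0.18 (adjusted p = 5.54e-06, 0.000267 and 0.00037 from edgeR's test). Between Smo and the Gli factors, 21 genes were tested and none was called, with 9 higher and 4 lower by the adjusted p alone (61.9% in all). The kinase gene Gsk3b, whose product marks Gli factors for processing, had 170 ± 1.35 CPM with mimic control and 206.5 ± 4.02 CPM with the mimic (SD, n = 3 each), or 0.28 on the log2 scale. Evc, which acts with Smo at the base of the cilium, had -0.37, and Tulp3, which carries receptors into the cilium, had 0.26 (adjusted p = 1.52e-06, 1.13e-05 and 1.79e-05 from edgeR's test).

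Genes of ciliary transport and of the transition zone numbered 23 tested, of which 11 were higher and 2 lower by the adjusted p alone (56.5% in all, beside the 46.7% of all genes), and none passed the fold cutoff. The median was 0.17 on the log2 scale, and whether the list differs from other genes was not tested. Rpgrip1l, of the transition zone, went from 18.6 ± 0.414 to 26.8 ± 0.296 CPM (SD, n = 3 each), or 0.52 on the log2 scale (edgeR adjusted p = 1.97e-06), which is under the 1.5-fold line. The motor gene Kif3a had 0.34 and Tctn2, also of the transition zone, had 0.48 (adjusted p = 6.86e-06 and 6.6e-05, edgeR).

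Among 16 other genes known to follow the signal in several tissues, 12 were tested and Foxf2 was called lower. Foxf2, a forkhead transcription factor gene of mesenchymal cells, had 41, 39 and 38 reads in the control samples and 23, 27 and 32 in the mimic samples. The groups did not overlap, and the log2 fold change was -0.63 (SE 0.20, edgeR adjusted p = 0.0203). The call was lost in the fits without miR-182-5p mimic replicate 1 (-0.49, adjusted p = 0.0889) and without mimic control replicate 1 (-0.59, adjusted p = 0.0655), and with DESeq2 (adjusted p = 0.0909), and its log2 fold change lay between -0.75 and -0.49 over all alternatives (adjusted p = 0.0167 to 0.0909). Grem1, a secreted antagonist of bone morphogenetic proteins, had a log2 fold change of 0.52, Foxc2 had 0.43 and the cyclin gene Ccnd1 had 0.17 (adjusted p = 8.54e-06, 0.00238 and 0.00998 from edgeR's test), all under the fold cutoff.

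**Figure D4:**
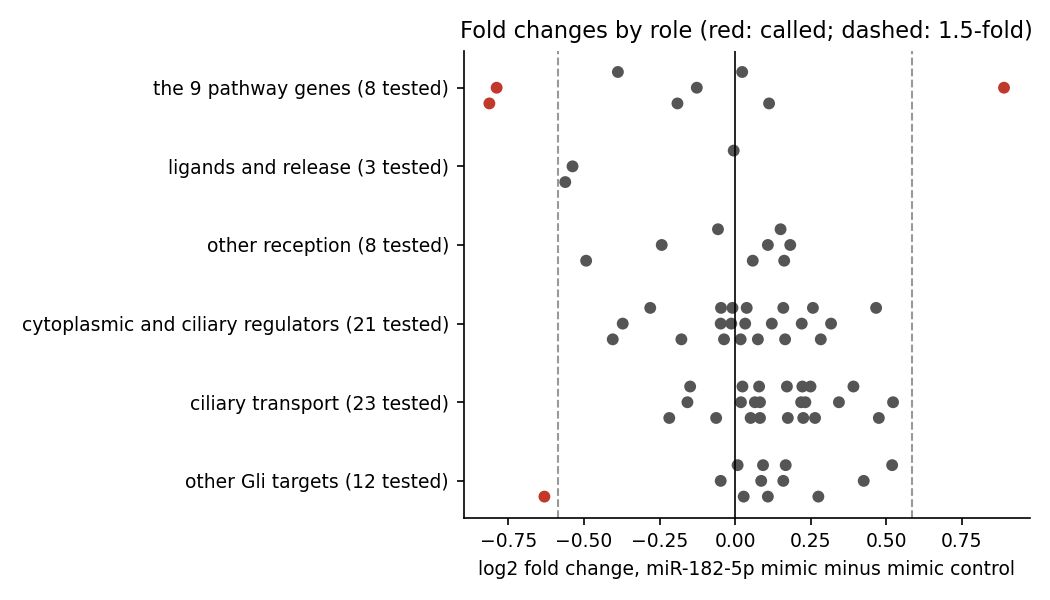
Log2 fold change (horizontal axis, miR-182-5p mimic minus mimic control) of every tested gene of the pathway, 1 point per gene, in rows by role, with dashed lines at 1.5-fold. The 3 red points in the top row are Gli2, Gas1 and Ptch1, and the 1 red point in the bottom row is Foxf2.

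In 7 of the 9 genes a promoter window of 300 bases, from 250 before to 50 after the gene's start, is given by RefSeq on GRCm38.p6. Gli1 and Boc had no such window and were not searched. The Gli motif GACCACCCA, searched on both strands, was in 0 of the 7 windows, also with up to 1 mismatch, while 0.253% of all 32851 windows hold it exactly and 6.74% with up to 1 mismatch. That says only that these letters are not in these windows.

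Across the 6 samples, the genes whose log2 CPM followed Gas1 most closely were Podn (Pearson's r 0.9993), Zfp953 (0.9988) and Tmem39a (0.9982). The 6 points fall into the 2 groups, so such values are a description of the group difference. Podn, which encodes a small leucine-rich proteoglycan, was at 82.6 ± 0.778 CPM with mimic control and 66.4 ± 2.66 CPM with the mimic (SD, n = 3 each).

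Reads on genes ranged from 25869810 to 26484794 in the controls and from 25960631 to 28796712 in the mimic samples, and the first principal component, with 64.4% of the variance, separated the groups. The labelled cell type was present in every sample: the 8 adipocyte markers were all tested and Fabp4 was at 3316 ± 132 and 2067 ± 118.5 CPM (SD, n = 3 each). Some markers of several cell types fell as Gas1 and Gli2 did, while others held or rose. Fabp4 and Pnpla2 were called lower among the adipocyte markers, whose summed level was 6807 to 7152 CPM with mimic control and 4650 to 5244 CPM with the mimic. By the adjusted p alone, 5 of the 8 were lower and 1, Lep (0.37 on the log2 scale, edgeR adjusted p = 0.00276), was higher, while Plin1 (-0.06) and Lipe (-0.09) did not pass. Of the 8 progenitor markers, 7 were tested, and Pdgfra (-0.86), Pi16 (-0.78), Cd34 (-1.53) and Icam1 (-0.71) were called lower on the log2 scale. Dpp4 had 6 reads at most and Thy1 had a log2 fold change of 0.19 (adjusted p = 0.000347, edgeR).

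Markers of macrophages, endothelial cells and Schwann cells were low. Those of smooth muscle were not, with sums of 3446 to 3619 CPM with mimic control and 4123 to 4490 CPM with the mimic. The 8 macrophage markers summed to 12.9 to 14.5 CPM with mimic control and 11.7 to 14.5 CPM with the mimic, with Ptprc at 0 to 4 reads per sample, and Lyz2 (-0.63) was called lower among the 3 tested. The 5 endothelial markers summed to 8.13 to 9.27 CPM and 5.09 to 5.74 CPM, with Pecam1 at 3 to 11 reads, and Tek (-1.31) was called lower among the 3 tested. Tek made up most of that sum, at 6.05 ± 0.608 and 2.43 ± 0.247 CPM (SD, n = 3 each), while Kdr (0.43, edgeR adjusted p = 0.0899) and Cdh5 (-0.14, edgeR adjusted p = 0.73) did not pass. The 4 Schwann cell markers, listed because Schwann cells make Dhh, summed to 6.09 to 6.97 CPM and 4.45 to 5.31 CPM, and S100b (-0.71), which adipocytes also express, was called lower among the 3 tested.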

How the data were processed

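Each sample's file, as deposited by the authors, lists genes with raw counts of reads from poly(A)-selected, stranded libraries. The submitters' processing notes name bcl2fastq, TopHat2, HTSeq and the mouse build mm9, while versions and counting settings are not given in the sources used here. The 5 tally lines that close each list name no gene, held 47.4% to 47.9% of all its entries (most of them alignments that are not unique), and were left out. The counts used came to 25869810 to 28796712 reads per sample, and no pair of replicates was a copy of 1 library (chi-square per degree of freedom 2.08 to 6.90).

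Counts were tested in edgeR 4.0.16 on R 4.3.3 (TMM, default filter with a minimum count of 10, quasi-likelihood test, 2 groups, no block, two-sided, Benjamini-Hochberg over 13117 genes). Standard errors (SE) are the log2 fold change divided by the square root of F. The cutoffs (1.5-fold, adjusted p under 0.05) follow the study. CPM used TMM-scaled library sizes, with 0.1 added before log2 for permutation tests and correlations. The script of the fit was tested on simulated data. Symbols were matched to GENCODE M21 (GRCm38, another build than mm9) for 22209 of 22609 genes, and its coordinates describe that build only. Alternatives were DESeq2 1.42.0 as a test and for size factors, limma-voom (limma 3.58.1), other filters, the replicate block, leaving out each sample and no fold cutoff.

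The genes studied, the lists of other pathway genes and of cell type markers (adipocyte, progenitor, macrophage, endothelial, Schwann cell, smooth muscle, bone and cartilage) were chosen with earlier results of these data known. Genes named beside the 9 were those called, the 3 with the smallest p per pathway list, the 3 ligands, the called or else most abundant markers, and the 3 genes most like Gas1. Others are marked as picked later or name the defining markers of a cell type. Some genes of these lists are not reported here. Python 3.11.15, with pandas 2.3.3, numpy 2.4.6, scipy 1.17.1 and matplotlib 3.10.9, made the tables and plots.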

Additional observations from a re-analysis of the deposited data

How the results depend on the processing

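The count of 3 Hedgehog genes called was 3 in every alternative that kept the fold cutoff and 4 without it, when Smo is added. Those 4 are 50% of the 8 genes tested, near the 46.7% of all genes tested that passed the adjusted p alone. For the 8 genes tested, each direction was kept in every alternative that gave a value, and each call in those with the fold cutoff, though Hhip ranged from -0.732 to -0.056 on the log2 scale (it drops out where at least 10 counts in every sample are asked for). Of all genes, 977 were called, against 6124 without a fold cutoff, 925 under a replicate block (same-numbered samples as pairs) and 902 to 1011 with 1 sample left out. Of the other pathway genes, 1 was called, against 35 without a fold cutoff, 0 with DESeq2 and 0 to 2 with 1 sample left out (0 without miR-182-5p mimic replicate 1 or mimic control replicate 1, and 2, with Disp2, without miR-182-5p mimic replicate 2). Same-numbered samples did not deviate together (correlations -0.18 to -0.0424), but 3 samples per group are too few to show whether any shared a preparation. The replicate block changed no call among the Hedgehog genes. Read depth limits Gli1, Hhip and the ligands.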

Other observations

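Markers of bone and cartilage and of smooth muscle were also read, since Hedgehog signal acts in other mesenchymal lineages. Of 8 bone and cartilage markers, 4 were tested, and they did not share a direction. Sp7, a transcription factor gene of bone-forming cells, rose from 4.55 ± 0.281 to 7.59 ± 0.640 CPM (SD, n = 3 each), with a log2 fold change of 0.74 (adjusted p = 4.27e-05 from edgeR's test). Alpl, which encodes alkaline phosphatase, fell from 21.99 ± 0.878 to 11.6 ± 0.815 CPM (SD, n = 3 each), with a log2 fold change of -0.93 (adjusted p = 8.14e-08 from edgeR's test). The summed level of the 8 was 84.0 to 88.5 CPM with mimic control and 84.5 to 87.1 CPM with the mimic. Of the 4 smooth muscle markers, all tested, none was called, but 3 were higher and 0 lower by the adjusted p alone. Their summed level was 3446 to 3619 CPM with mimic control and 4123 to 4490 CPM with the mimic. Acta2, the most abundant, was at 2364 ± 68.7 and 2891 ± 121 CPM (SD, n = 3 each), or 0.29 on the log2 scale (edgeR adjusted p = 1.95e-05).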
